A study of Mus musculus with 29 samples.

Results

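The neuregulin and EGF family was followed in regenerating and unamputated mouse digits through 10 genes: the ligands Nrg1, Areg, Ereg, Btc, Hbegf, Tgfa and Epgn and the receptors Egfr, Erbb2 and Erbb3. They were taken by symbol from a time course table that lists 24411 genes and by Ensembl identifier from an amputation table that lists 55487. All 10 genes were listed in both tables, and all 10 passed the filter on low counts in each.

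Poly(A) RNA was sequenced from left hindlimb digits, taken distal to the metacarpophalangeal joint and without the nail. In the time course, mice received a sham operation or spared nerve injury (SNI), in which 2 branches of the sciatic nerve, the tibial and the common peroneal, are cut, and the digit tip was amputated through the third phalanx 5 days later. Libraries came from day 7 (3 sham, 3 SNI), day 14 (3 sham, 3 SNI) and day 21 (2 sham, 3 SNI) after amputation. The second set held SNI animals only, so its controls carry the same nerve injury: 3 amputated and 3 unamputated at day 7, and 3 amputated and 3 unamputated at day 14. Its libraries, the unamputated ones included, are listed with the same lead of 5 days after surgery. The unamputated groups were placed by their treatment label, although other labels of theirs give a time after amputation and call the tissue regenerate. Each library is labelled a biological replicate, and strain, sex and age are not among the labels used here.

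EGF family ligands are made as membrane-bound precursors that proteases release, and they signal through pairs of ErbB receptor tyrosine kinases. Areg, Ereg, Btc, Hbegf, Tgfa and Epgn bind Egfr, while Nrg1 binds Erbb3 or Erbb4. Erbb2 has no ligand of its own and serves as the partner of the others, and Erbb3 has little kinase activity and depends on that partner. In skin these ligands drive keratinocyte growth and migration, and in peripheral nerve Nrg1 acting on Erbb2 and Erbb3 supports Schwann cells and myelination.

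Of the 10 genes, 4 ligand genes lie next to each other on chromosome 5 in the order Epgn, Ereg, Areg and Btc, with 0 other protein-coding genes between them in the RefSeq annotation of GRCm38.p6. Of these neighbours Epgn and Ereg were called lower after amputation and Areg and Btc were not called, so the promoter windows of the 3 with an entry are shown, each reaching from 250 bases before to 50 bases after the annotated start of the gene. Capitals mark matches to 4 motifs searched on both strands: TATAAA (the TATA box), GGGCGG (the GC box), TGACGTCA (the cyclic AMP response element) and TGANTCA (the AP-1 site). The sequences are from RefSeq, and windows were found for 6 of the 10 genes.
Epgn, chr5:91027267-91027566, plus strand: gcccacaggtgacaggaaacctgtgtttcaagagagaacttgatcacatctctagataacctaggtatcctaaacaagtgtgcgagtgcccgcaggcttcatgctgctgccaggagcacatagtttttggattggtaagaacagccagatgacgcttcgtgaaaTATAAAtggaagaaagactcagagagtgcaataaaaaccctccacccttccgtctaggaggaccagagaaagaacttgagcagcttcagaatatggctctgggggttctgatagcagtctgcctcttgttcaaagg
Areg, chr5:91139349-91139648, plus strand: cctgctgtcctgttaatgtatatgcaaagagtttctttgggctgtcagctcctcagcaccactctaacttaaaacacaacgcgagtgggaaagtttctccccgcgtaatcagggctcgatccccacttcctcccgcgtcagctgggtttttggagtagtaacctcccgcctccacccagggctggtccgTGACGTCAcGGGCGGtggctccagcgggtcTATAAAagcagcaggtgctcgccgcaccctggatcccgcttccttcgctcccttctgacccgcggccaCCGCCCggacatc
Btc, chr5:91402945-91403244, minus strand: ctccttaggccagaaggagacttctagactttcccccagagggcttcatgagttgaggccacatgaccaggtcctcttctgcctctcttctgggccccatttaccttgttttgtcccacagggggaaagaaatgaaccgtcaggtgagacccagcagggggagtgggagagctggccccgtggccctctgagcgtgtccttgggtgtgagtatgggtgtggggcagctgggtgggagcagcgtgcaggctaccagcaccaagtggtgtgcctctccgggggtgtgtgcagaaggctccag
The Epgn window (GC content 47.3%) holds TATAAA at position -86 from the start. The Areg window (59.3% GC) holds TATAAA at -31, TGACGTCA at -61 and GGGCGG at -52, with a GC box on the other strand at 38. The Btc window (60.3% GC) holds no match to these letters. Among 32851 windows of the same length, TATAAA was found in 13.6%, GGGCGG in 35.7%, TGACGTCA in 1.79% and TGANTCA in 7.81%. A match is a run of letters and not a measured site.

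Total counts were between 35654192 and 56809440 per library in the time course and between 31274245 and 43315729 in the second set. Markers of skin and connective tissue were high, as the label of a digit implies: the summed level of 6 basal keratinocyte genes was between 8092 and 16310 CPM and that of 5 fibroblast genes between 2089 and 19220 CPM over the time course. CPM, counts scaled to the TMM-adjusted library size, is the unit of level throughout. The time course libraries were far from uniform. Ribosomal protein genes took between 9.94% and 21.48% of counts in 7 libraries, of which 6 were SNI and 1 was sham, and between 4.941% and 8.416% in the other 10, of which 3 were SNI and 7 sham. In the second set this share was between 4.857% and 7.729%. Sham day 21 replicate 1 (21.48%) and SNI day 7 replicate 2 (18.2%) stood farthest apart, and with 2 sham libraries at day 21, the first of these is 1 of only 2.

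Levels between genes were compared per kilobase of exon. In the second set the receptor Erbb2 was highest at 34.6 CPM per kb ± 4.05 (SD, n = 12), followed by the ligand Ereg at 26.6 CPM per kb ± 7.91 and the receptor Erbb3 at 25.2 CPM per kb ± 3.09. Btc followed at 16.9 CPM per kb ± 5.07, Egfr at 11.3 CPM per kb ± 1.28, Hbegf at 10.2 CPM per kb ± 3.41 and Tgfa at 7.99 CPM per kb ± 0.778. Lowest were Epgn at 3.70 CPM per kb ± 1.51, Areg at 1.41 CPM per kb ± 0.614 and Nrg1 at 0.417 CPM per kb ± 0.157. The ranges of mean ± 1 SD overlapped between the neighbours Erbb2 and Ereg, Ereg and Erbb3, Btc and Egfr, Egfr and Hbegf, and Hbegf and Tgfa. The order of Ereg and Erbb3 differed by group. Ereg had the higher mean without amputation, at 34.2 against 26.2 CPM per kb at day 7 and 33.3 against 27.5 CPM per kb at day 14, and the lower mean after it, at 17.6 against 23.8 and 21.3 against 23.4 CPM per kb. Exons of all transcripts of a gene in the basic set of GENCODE M21 were joined, which understates the level per kb of a gene with many alternative exons such as Nrg1.

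The comparison of amputated with unamputated digits asks what amputation changes in a digit after SNI. Lower after amputation were 3 of the 7 ligand genes, and no member was called higher. Averaged over both days, Ereg, Epgn and Nrg1 passed an adjusted p under 0.05 by edgeR's quasi-likelihood test with Benjamini-Hochberg adjustment over 17475 genes, all 3 lower, against 11.8% of all genes called and 6.08% called lower. At day 7 Ereg and Epgn passed, against 1.35% of all genes called and 0.75% called lower, and at day 14 only Ereg did, against 2.75% and 1.44%. The median log2 fold change of the 10 members in the average was -0.137, beside 0.0112 over all genes tested. In bulk tissue, fewer cells of a type and less RNA per cell cannot be told apart.

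Ereg codes for epiregulin, a ligand of Egfr and Erbb4. At day 7 its level was 62.6, 70.8 and 84.5 CPM in the amputated libraries and 129, 136 and 158 CPM in the unamputated ones. By day 14 Ereg was at 86.7, 89.5 and 88.1 CPM after amputation and 141, 125 and 146 CPM without it. Every amputated library was below every unamputated library of either day. The log2 fold change of Ereg was -0.96 ± 0.11 (SE) at day 7 (edgeR, adjusted p = 0.00138) and -0.64 ± 0.11 at day 14 (edgeR, adjusted p = 0.0156). Averaged over the days it was -0.80 (95% interval -0.97 to -0.63, edgeR, adjusted p = 0.00017), which is 0.575 times the unamputated level. The difference between the days was 0.32 (95% interval -0.01 to 0.65) and did not pass (edgeR, adjusted p = 0.784). The call for Ereg at day 14 ended without amputated replicate 3 or unamputated replicate 1 or 3 of that day (edgeR, adjusted p up to 0.092). Exons of Ereg overlap those of the predicted gene Gm19610 on the opposite strand over 141 bases in GENCODE M21, and whether the counting used strand is not given in the sources used here.

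Epgn, the neighbour of Ereg, codes for epigen, a ligand of Egfr. Its day 7 level was 3.12, 5.28 and 3.68 CPM after amputation and 8.84, 8.01 and 12.1 CPM without it, with no overlap. The day 14 level was 6.00, 3.94 and 6.10 CPM after amputation and 5.32, 9.96 and 7.96 CPM without it, and the groups overlapped through unamputated replicate 1. The log2 fold change of Epgn was -1.26 ± 0.27 (SE) at day 7 (edgeR, adjusted p = 0.0447), -0.53 ± 0.27 at day 14 (edgeR, adjusted p = 0.248) and -0.90 ± 0.19 in the average (edgeR, adjusted p = 0.0154). The call at day 7 ended without any 1 of 5 of the 6 day 7 libraries, all but amputated replicate 2 (edgeR, adjusted p up to 0.134). The change in Epgn between the days was 0.72 (95% interval -0.10 to 1.55, edgeR, adjusted p = 0.789).

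Nrg1, the neuregulin of peripheral nerve and skin, was the lowest member per kilobase of exon. It had between 73 and 201 counts per library in this set. Its day 7 level was 1.77, 2.72 and 1.95 CPM after amputation and 3.54, 3.48 and 5.37 CPM without it, with no overlap. The level at day 14 was 3.11, 2.86 and 2.46 CPM after amputation and 2.27, 4.40 and 5.46 CPM without it. The lowest unamputated library lay below all 3 amputated ones at that day. The log2 fold change of Nrg1 was -0.94 ± 0.30 (SE) at day 7 (edgeR, adjusted p = 0.166), -0.53 ± 0.30 at day 14 (edgeR, adjusted p = 0.305) and -0.73 ± 0.21 in the average (edgeR, adjusted p = 0.0438). The averaged call ended without any 1 of 10 of the 12 libraries, all but amputated day 7 replicate 2 and unamputated day 14 replicate 1 (edgeR, adjusted p up to 0.108). Exons of Nrg1 overlap the predicted gene Gm26578 on the opposite strand over 482 bases.

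**Figure D1:**
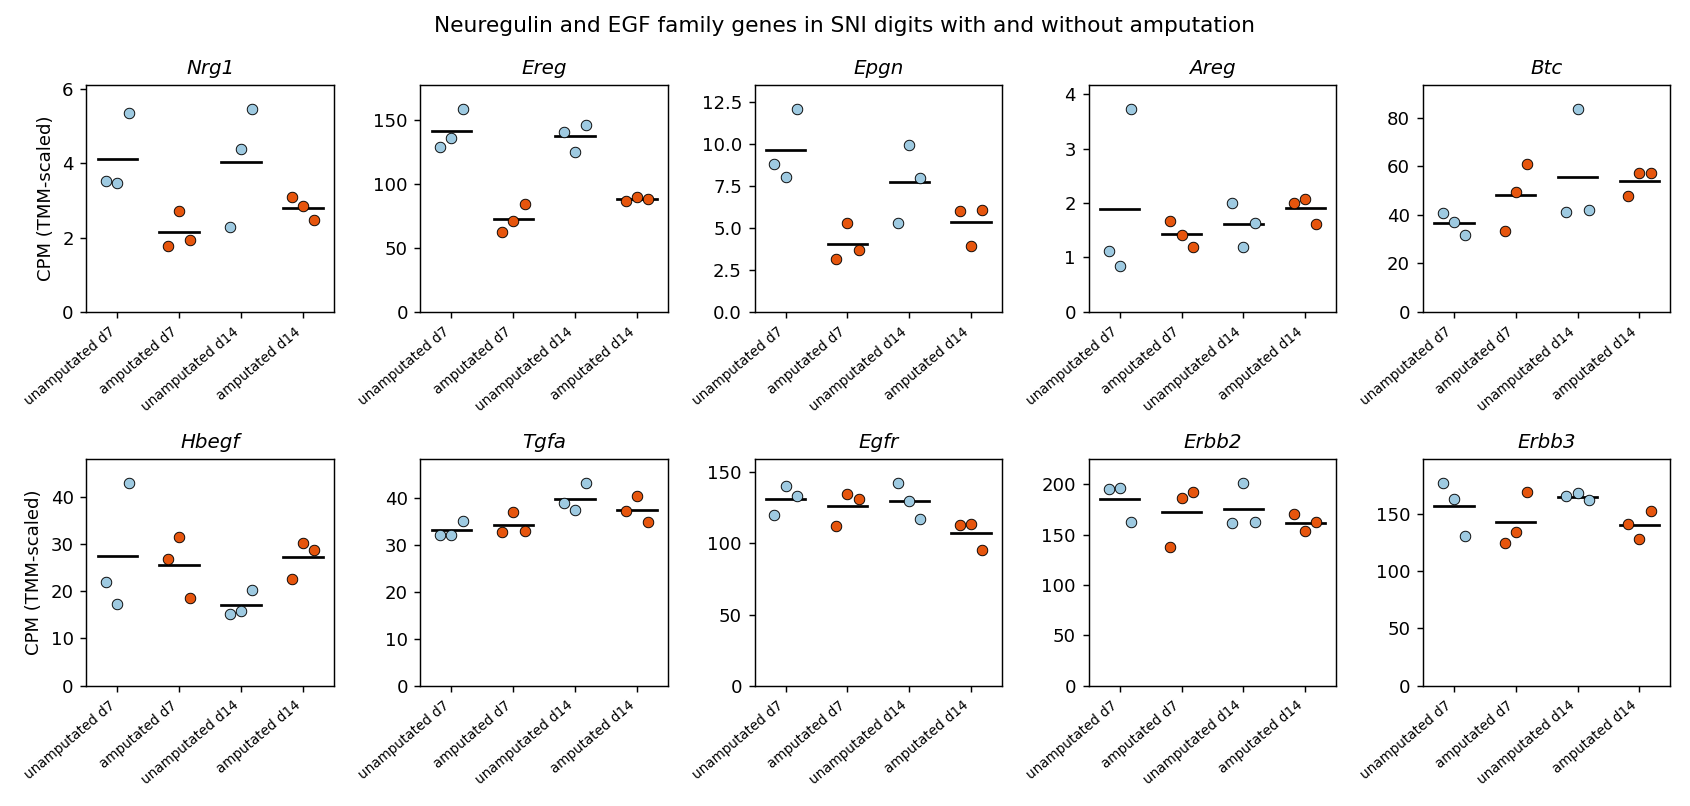
Level in CPM, on linear axes from 0, of the 10 genes in the 12 SNI libraries with and without amputation at days 7 and 14; each point is a library and each bar the mean of 3. The amputated libraries lie below all unamputated ones for Ereg, between 62.6 and 89.5 CPM against 125 to 158 CPM.

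The other ligands did not pass the test in this comparison. Hbegf, the heparin-binding ligand of Egfr, was at 22.6, 30.3 and 28.6 CPM in amputated digits and 15.2, 15.7 and 20.4 CPM in unamputated digits at day 14, without overlap, and its log2 fold change was 0.67 (95% interval -0.02 to 1.35, edgeR, adjusted p = 0.22). At day 7 the Hbegf groups overlapped, at 26.8, 31.5 and 18.6 CPM after amputation and 22.0, 17.3 and 42.9 CPM without it. That last value, of unamputated day 7 replicate 3, was the highest of all 12 libraries, and the same library was also highest for Areg (3.73 CPM), Ereg and Epgn. Without it the averaged log2 fold change of Hbegf went from 0.29 to 0.53 and passed (edgeR, adjusted p = 0.0384). Areg, or amphiregulin, was between 0.836 and 3.73 CPM and had an averaged log2 fold change of -0.08 (95% interval -0.76 to 0.61). Btc, or betacellulin, had a log2 fold change of 0.18 (95% interval -0.26 to 0.62). Tgfa, or transforming growth factor alpha, was between 32.1 and 43.2 CPM over the 12 libraries, with a log2 fold change of -0.02 (95% interval -0.16 to 0.12).

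Receptor levels varied little in these 12 libraries, with a ratio of highest to lowest library of 1.42 for Erbb3, 1.464 for Erbb2 and 1.496 for Egfr. Erbb2, the shared partner, had an averaged log2 fold change of -0.11 (95% interval -0.31 to 0.09, edgeR, adjusted p = 0.453). Erbb3, the neuregulin receptor, had -0.19 (95% interval -0.38 to 0.00, edgeR, adjusted p = 0.176). The day 14 level was 142, 128 and 153 CPM after amputation and 166, 168 and 163 CPM without it, and the groups did not overlap. Egfr had an averaged log2 fold change of -0.16 (95% interval -0.32 to -0.01, edgeR, adjusted p = 0.153), and its day 14 levels of 113, 113 and 95.3 CPM after amputation lay below 143, 130 and 117 CPM without it. Of the 3 receptors, Erbb3 had the lowest bound of an averaged interval, at -0.38.

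**Figure D2:**
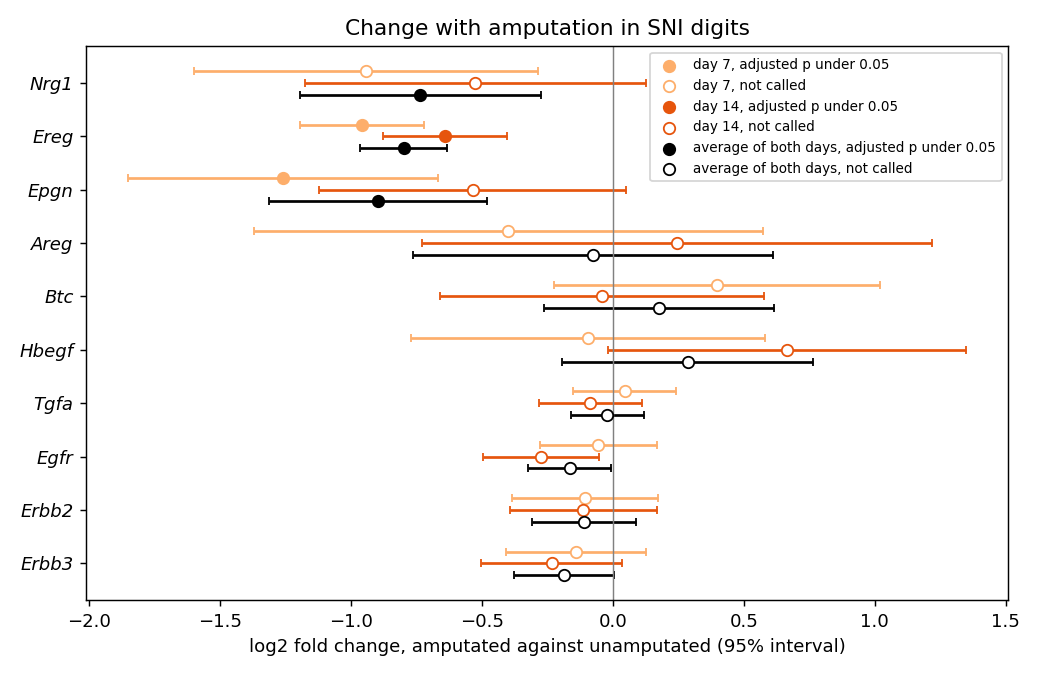
Log2 fold change of the 10 genes, amputated against unamputated SNI digits, at day 7, at day 14 and averaged; bars are 95% intervals and filled points passed an adjusted p under 0.05 by edgeR. Ereg lies left of 0 in all 3 rows, with an average of -0.80, while the averages of Egfr, Erbb2 and Erbb3 lie between -0.19 and -0.11.

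Markers of several cell types moved with amputation as well, and their part in the results for the members was not tested. The summed level of 6 genes of differentiated epidermis was between 41980 and 46920 CPM after amputation and between 65090 and 74870 CPM without it at day 7. At day 14 it was between 48140 and 54160 CPM after amputation and between 59450 and 61560 CPM without it. Of these genes 4 of the 6 were called lower in the average: Krt1, Krt10, Lor and Flg. The summed level of 6 basal keratinocyte genes overlapped at day 7 (10450 to 11840 against 10910 to 11780 CPM). At day 14 it was higher after amputation without overlap, at 11500 to 13040 against 10440 to 11410 CPM. Of these 6 genes 1, Krt15, was called higher in the average. The 7 myelin genes were all called lower in the average, with sums between 111.7 and 181.4 CPM against 264.7 to 273 CPM at day 7 and between 103.8 and 116.5 CPM against 255.4 to 309.4 CPM at day 14. No gene of the lists for differentiated epidermis, basal keratinocytes and myelin was at 0 in any of the 12 libraries. The ribosomal protein share was between 5.902% and 7.729% in the amputated libraries and between 4.857% and 5.409% in the unamputated ones.

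Beyond the 10 members, 38 genes of the pathway were counted, of which 37 were tested in the second set. None was called at day 7 or at day 14 by edgeR, beside 1.35% and 2.75% of all genes, while DESeq2 called 1 each, Phlda1 and Etv4. At an unadjusted p under 0.05 by edgeR were 7 and 6 of them. The share of all genes at that threshold is not given here, so these counts cannot be read as an excess. In the average 1 was called higher and 1 lower by edgeR, beside 11.8% of all genes called and 6.08% called lower. DESeq2 called 5, Bace1, Etv4, Nrg2, Phlda1 and Sos1, and its share over all genes in the average is not given here. The median of the 37 log2 fold changes was 0.083, beside 0.0112 over all genes. The gene called higher was Bace1, a protease that cleaves the Nrg1 precursor. It was at 30.8, 20.5 and 21.5 CPM in amputated and 18.3, 18.7 and 16.8 CPM in unamputated digits at day 7, with an averaged log2 fold change of 0.48 ± 0.13 (SE, edgeR, adjusted p = 0.0373). The gene called lower was Phlda1, which growth factor signalling induces in many cells, at -0.27 ± 0.078 (SE, edgeR, adjusted p = 0.0418). The 5 genes for release of ligands, the 6 inhibitors of the receptors, the 6 adaptors and kinases and the 16 feedback genes and targets otherwise had no call by edgeR. Among the remaining ligands, Nrg4 had group means between 8.28 and 12.0 CPM and Nrg2 between 4.84 and 7.20 CPM, while Egf had group means of at most 1.11 CPM. The receptor Erbb4 had group means of at most 0.316 CPM, and Nrg3 was listed at 0 in all 6 day 14 libraries.

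Between days 7 and 14 no member was called within the amputated digits (edgeR, 0.607% of all genes called) or within the unamputated ones (edgeR, 0.303%), and DESeq2 called none either. At an unadjusted p under 0.05 there were 2 members in the amputated digits and 1 in the unamputated. That threshold is looser than the one behind the 2 shares above, which are no background for these counts. Ereg was higher at day 14 than at day 7 in every amputated library, with a log2 difference of 0.28 ± 0.11 (SE, edgeR, adjusted p = 0.309). Tgfa was higher at day 14 in every unamputated library, with 0.26 ± 0.091 (SE, edgeR, adjusted p = 0.705).

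The genes with the most similar profile over the 12 libraries were sought among 13368 genes, by Pearson's r of log2 CPM, as a description. Closest to Ereg were Btbd10 (r = 0.955), Dhrs9 (r = 0.953) and Ankrd9 (r = 0.952), and closest to Epgn were Tfg (r = 0.954), Mfap3l (r = 0.947) and Lrrfip1 (r = 0.938). Closest to Nrg1 were Abcf2 (r = 0.934), Map3k6 (r = 0.932) and Ralgps2 (r = 0.912). Among the members, r was 0.881 for Nrg1 with Epgn, 0.80 for Ereg with Epgn and 0.746 for Nrg1 with Ereg. The points share the split by amputation, which these 3 genes follow.

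The time course asks whether cutting the nerve branches changes the regenerating digit. No member was called between SNI and sham at any day, in the average or in the interaction with day. By edgeR the share of all 16084 genes called was 0% in each of these comparisons, and DESeq2, which called between 3 and 163 genes, called no member either. At an unadjusted p under 0.05 there were 2 members at day 7 (Ereg and Hbegf), 0 at day 14, 0 at day 21 and 1 in the average (Ereg), beside 13.6%, 5.93%, 2.2% and 14% of all genes. The spread between replicates was wider than in the second set, with a biological coefficient of variation of 0.393 against 0.17.

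The receptors had the most negative averaged log2 fold changes of the 10 genes, with intervals that include 0. Erbb3 was at 114, 63.9 and 60.3 CPM in sham and 50.7, 8.03 and 31.3 CPM in SNI digits at day 7, without overlap. It was at 88.8, 77.1 and 83.1 CPM in sham and 78.9, 30.2 and 21.5 CPM in SNI digits at day 14, and at day 21 at 3.66 and 69.6 CPM in sham and 52.6, 28.3 and 16.8 CPM in SNI digits. The sham groups at days 7 and 14 were higher on average than the SNI groups, while at day 21 the lowest library of all 17 was a sham one. The averaged log2 fold change of Erbb3 was -0.84 (95% interval -1.92 to 0.25, edgeR, adjusted p = 0.435). That of Erbb2 was -0.65 (95% interval -1.49 to 0.20, edgeR, adjusted p = 0.437), and its day 7 levels were 176, 136 and 129 CPM in sham and 112, 26.4 and 78.6 CPM in SNI digits. That of Egfr was -0.55 (95% interval -1.14 to 0.03, edgeR, adjusted p = 0.37), with 99.4, 77.9 and 66.3 CPM in sham and 54.8, 26.2 and 46.3 CPM in SNI digits at day 7.

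**Figure D3:**
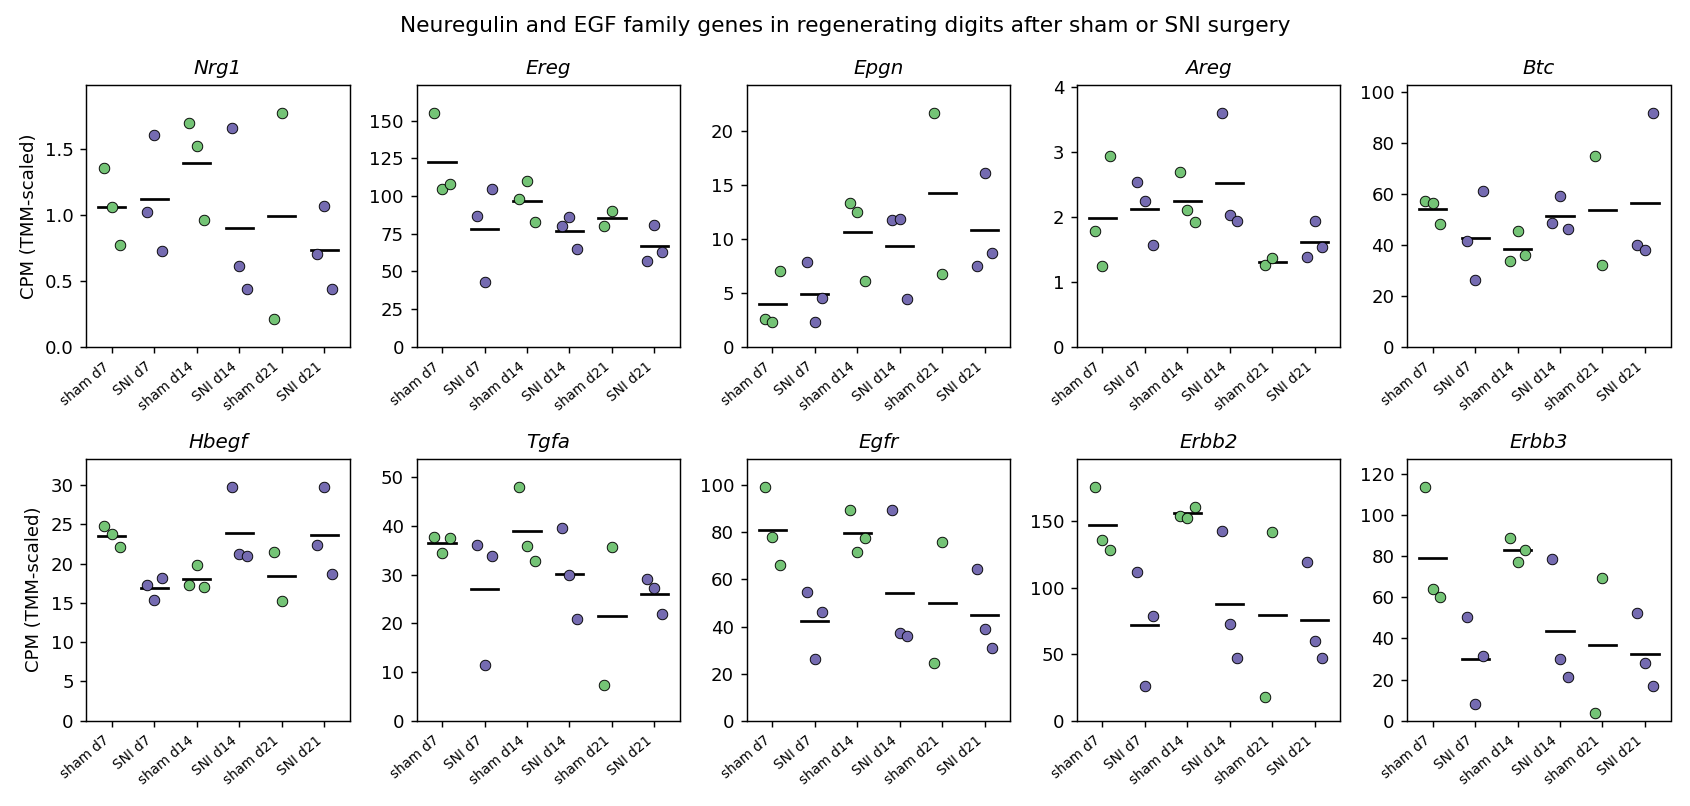
Level in CPM, on linear axes from 0, of the 10 genes in the 17 time course libraries, sham (green) and SNI (purple) at days 7, 14 and 21; each point is a library and each bar the group mean. Within a group, Erbb3 spans 3.66 to 69.6 CPM in sham at day 21 and 8.03 to 50.7 CPM in SNI at day 7.

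All 3 receptors moved with the ribosomal protein share of the library. In the 7 libraries with the highest share, Erbb2 was between 17.4 and 78.6 CPM, against 112 to 176 CPM in the other 10. Erbb3 was between 3.66 and 31.3 CPM against 50.7 to 114 CPM, and Egfr between 24.4 and 46.3 CPM against 54.8 to 99.4 CPM. The receptors therefore did not overlap between these libraries, whereas the 7 ligands did. Tgfa overlapped only in part, at 7.36 to 33.9 CPM against 29.1 to 48.1 CPM, and its r was 0.934 with Erbb2 and 0.946 with Erbb3. The main axis of variation over all genes tested (first principal component) held 63.73% of the variance. Its r was -0.987 with Erbb2 and -0.904 with Tgfa. The share of all genes that separate between these libraries was not computed. Within the 10 libraries of lower share, the 3 SNI libraries had Erbb3 at 50.7, 78.9 and 52.6 CPM and the 7 sham libraries had between 60.3 and 114 CPM. Within the 7 of higher share, the single sham library had Erbb3 at 3.66 CPM, below all 6 SNI libraries. With the logarithm of this share as a covariate, a choice made after seeing the data, the averaged log2 fold change was 0.16 for Erbb2, 0.31 for Erbb3 and -0.07 for Egfr, so Erbb2 and Erbb3 changed sign, and none of the 3 was called (edgeR, adjusted p from 0.167 to 0.462). Over the 17 libraries r was 0.993 for Erbb2 with Erbb3, and the genes closest to Erbb3 among 13103 were Atp6v0a1 (r = 0.997) and Txlna (r = 0.997). Nerve injury and this difference between libraries cannot be told apart for the receptors, since 6 of the 7 libraries of high share are SNI.

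**Figure D4:**
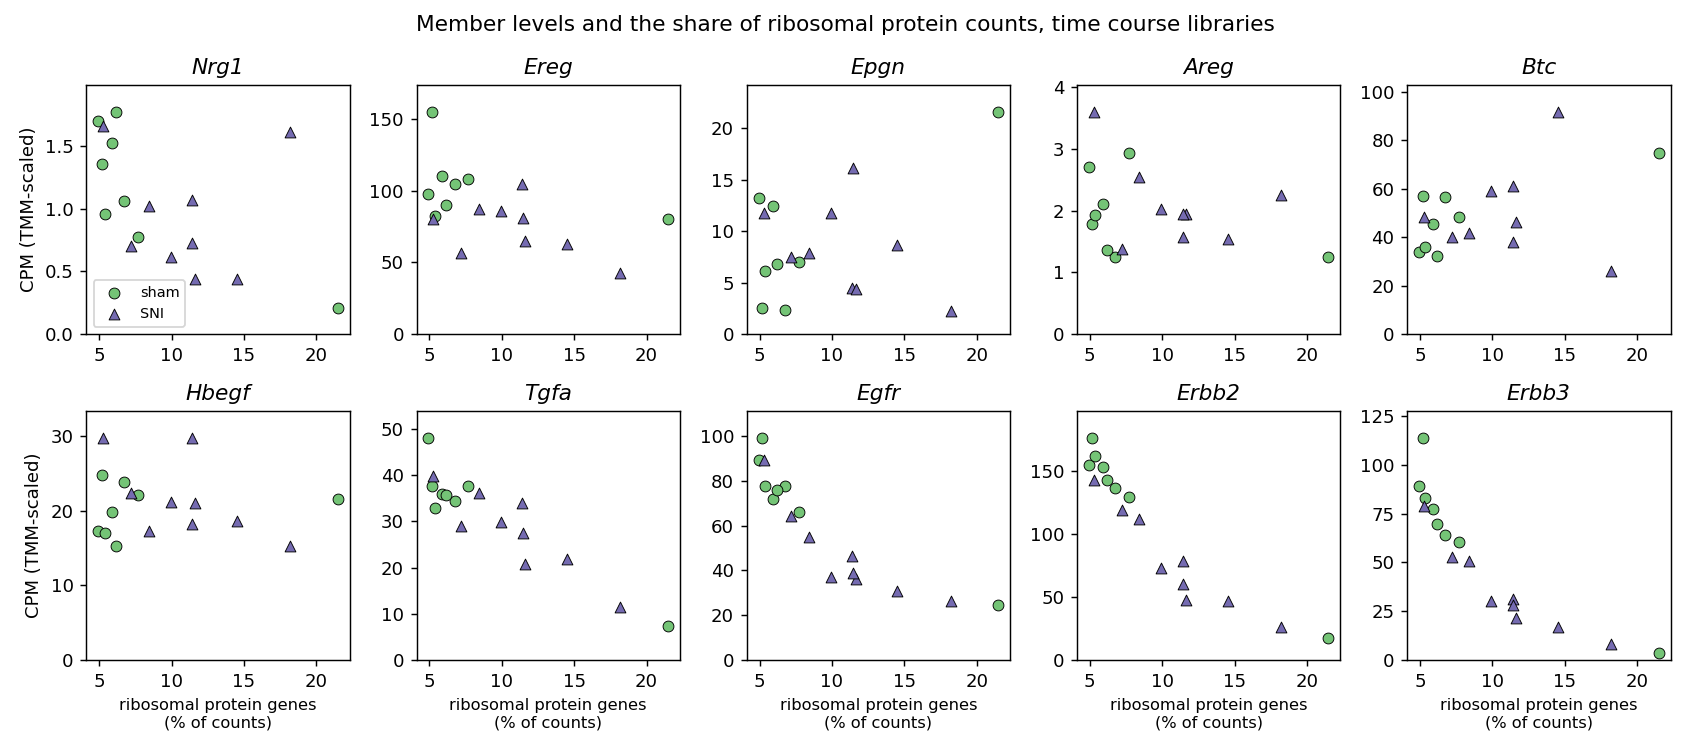
Level in CPM of the 10 genes against the percentage of counts in ribosomal protein genes, for the 17 time course libraries (circles sham, triangles SNI). Erbb2, Erbb3, Egfr and, with some overlap, Tgfa are lower the higher the share, with the sham library at 21.48% at the low end. Hbegf, Epgn and Areg are spread over the range.

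Ereg had the smallest p of the 10 genes in the averaged SNI comparison and did not pass. At day 7 it was at 155, 104.5 and 108 CPM in sham and 86.9, 42.7 and 104.4 CPM in SNI digits, and the highest SNI library lay just below the lowest sham one. Day 14 levels were 97.9, 110.0 and 82.5 CPM in sham and 80.1, 86.1 and 64.7 CPM in SNI digits, and day 21 levels 80.4 and 90.0 CPM in sham and 56.8, 80.9 and 63.0 CPM in SNI digits. The averaged log2 fold change of Ereg was -0.44 ± 0.17 (SE, unadjusted p = 0.021, edgeR, adjusted p = 0.337). It was -0.34 with the ribosomal share as covariate (edgeR, adjusted p = 0.221).

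Hbegf in SNI digits lay below sham at day 7 and above it at day 14, without passing the test. At day 7 it was at 24.7, 23.8 and 22.1 CPM in sham and 17.3, 15.3 and 18.2 CPM in SNI digits. By day 14 it was at 17.3, 19.9 and 17.0 CPM in sham and 29.7, 21.2 and 21.0 CPM in SNI digits. The groups did not overlap on either day, and at day 21 they did, at 21.5 and 15.3 CPM in sham and 22.4, 29.8 and 18.7 CPM in SNI. The log2 fold change of Hbegf was -0.47 ± 0.21 (SE) at day 7 (edgeR, adjusted p = 0.301), 0.41 ± 0.21 at day 14 (edgeR, adjusted p = 0.578) and 0.36 ± 0.24 at day 21 (edgeR, adjusted p = 1). The interaction with day gave an unadjusted p of 0.0187 and an adjusted p of 0.712 by edgeR. Hbegf was also the member with the smallest range over the 17 libraries, with a ratio of highest to lowest of 1.95. The gene closest to it was Dusp1 (r = 0.83), an early-response phosphatase of the MAP kinases, followed by Apold1 (r = 0.702) and Errfi1 (r = 0.691), an inhibitor of Egfr. Over the 12 libraries of the second set other genes were closest to Hbegf: mt-Nd1 (r = 0.958), Rwdd3 (r = 0.93) and mt-Atp8 (r = 0.914). Mitochondrial genes held 0% of counts in the 17 time course libraries, so mt-Nd1 and mt-Atp8 could not be found there.

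Epgn had higher means at days 14 and 21 than at day 7 in both surgery groups, without passing the test. Its sham levels were 2.57, 2.34 and 7.03 CPM at day 7, 13.3, 12.5 and 6.13 CPM at day 14, and 21.6 and 6.77 CPM at day 21. Its SNI levels were 7.89, 2.28 and 4.52 CPM at day 7, 11.8, 11.8 and 4.41 CPM at day 14, and 7.49, 16.1 and 8.69 CPM at day 21. Against day 7, the log2 difference of Epgn in sham was 1.42 ± 0.62 (SE) at day 14 (edgeR, adjusted p = 1) and 1.83 ± 0.67 at day 21 (edgeR, adjusted p = 0.222). In SNI it was 0.92 ± 0.61 at day 14 and 1.13 ± 0.61 at day 21. Without sham day 21 replicate 1, the sham difference at day 21 was 0.77. The genes closest to Epgn over the 17 libraries were Krtap27-1 (r = 0.895), Krtap9-3 (r = 0.872) and Krtap7-1 (r = 0.861), which code for keratin-associated proteins of hair.

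The remaining ligands differed between SNI and sham by less than their errors in the average. Nrg1, at 6 to 101 counts per library and between 0.209 and 1.78 CPM, had a log2 fold change of -0.34 ± 0.39 (SE). Tgfa had -0.17 ± 0.29, Btc 0.05 ± 0.23 and Areg 0.19 ± 0.21. Tgfa, like the receptors, varied widely, from 7.36 to 48.1 CPM, with its lowest value in sham day 21 replicate 1. Btc was at 33.9, 45.5 and 36.02 CPM in sham and 48.5, 59.1 and 46.1 CPM in SNI digits at day 14, without overlap, with a log2 fold change of 0.41 (95% interval -0.42 to 1.25, edgeR, adjusted p = 0.587). Of the 38 other pathway genes, 36 were tested in the time course and neither edgeR nor DESeq2 called any between SNI and sham, with 4 at day 7, 1 at day 14 and 1 at day 21 at an unadjusted p under 0.05. Their median log2 fold change was -0.57 at day 7, -0.157 at day 14 and 0.0916 at day 21, beside 0.0198, 0.031 and -0.102 over all genes.

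Markers of other cell types differed between single libraries and between whole groups, and their part in the values above was not tested. The genes of differentiated epidermis summed to between 37000 and 42030 CPM in SNI and between 53170 and 61770 CPM in sham at day 7, and between 34340 and 54320 CPM against 59560 and 66120 CPM at day 14, with no overlap at either day. Macrophage genes summed to between 321.7 and 658.1 CPM in SNI and between 185.3 and 210.8 CPM in sham at day 14, also with no overlap, and 7 of 7 had an unadjusted p under 0.05 while 0 were called (edgeR). In SNI day 7 replicate 2, which had the lowest SNI level of Ereg, Btc, Hbegf, Tgfa, Epgn and all 3 receptors at that day, the 6 neutrophil genes summed to 13870 CPM, against 14.98 to 45.96 CPM in sham at day 7. The 4 wound keratinocyte genes summed to 10250 CPM there and to 9094 CPM in SNI day 14 replicate 1, against 1385 to 1456 CPM in sham at day 7 and 1428 to 2558 CPM in sham at day 14. Myelin genes summed to 92.55 to 159.9 CPM in SNI and 156.5 to 298.3 CPM in sham at day 7, to 180.3 to 262.5 CPM against 210.1 to 246.6 CPM at day 14, and to 117.8 to 126.7 CPM against 255.4 to 255.8 CPM at day 21, so the groups overlapped at days 7 and 14 and not at day 21. Without sham day 21 replicate 1 and SNI day 7 replicate 2, whose TMM factors were 0.6327 and 0.7611, the averaged log2 fold change was -0.98 for Erbb3, -0.77 for Erbb2, -0.65 for Egfr and -0.36 for Ereg, and none was called (edgeR, adjusted p from 0.0742 to 0.0767).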

How the data were processed

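RNA-seq libraries of mouse digits were made with a poly(A), strand-specific kit, per the labels' protocols. The authors deposited unnormalized counts for each gene in 2 tables, made on build GRCm39 per the submitters' processing notes. Aligner and counter: not given in the sources used here. Symbols and exon lengths came from GENCODE M21 (GRCm38), which named 55141 of 55487 identifiers. The 2 tables were fitted apart with a mean per group: filterByExpr (minimum count 10, minimum total 15), TMM and the quasi-likelihood test of edgeR 4.0.16 in R 4.3.3, adjusted by Benjamini-Hochberg over 16084 and 17475 genes. Genes with an adjusted p under 0.05 were called. Averages weight days equally. Standard errors were taken from the fold change and its F statistic, and intervals from the t distribution.

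All 10 members were described. Of 38 pathway genes, those called were named, and for likeness the 3 genes with the highest r (mean of at least 1 CPM, log2 CPM with prior count 2). Members and lists were chosen with earlier results of these data known. Alternatives were DESeq2 1.42.0, RLE size factors, no filter, a replicate block, each library left out, leaving out both time course libraries whose TMM factor was below 0.8 and, added later, the ribosomal protein share as covariate. The fit was tested on simulated data. No 2 libraries of a group agreed within sampling noise. Some results for marker genes are not reported here.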

Additional observations from a re-analysis of the deposited data

Results flagged for a closer look

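Hbegf was flagged in the time course because its SNI libraries all lay below the sham libraries at day 7 and all above them at day 14. Such a reversal was looked for among the 10 members, and how many of all genes show it was not counted. The 2 log2 fold changes of Hbegf, -0.47 and 0.41, differ by 0.88. The difference between days was tested with all 3 days together and did not pass (edgeR, unadjusted p = 0.0187, adjusted p = 0.712).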

How the results depend on the processing

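For the 50 member fold changes recomputed under the alternatives, 693 of 742 values kept their direction and their side of the threshold, 20 lost a call, 2 gained one and 27 changed sign. The 3 members called in the averaged amputation comparison were also called by DESeq2. DESeq2 called more genes in all: 54 at day 7, 67 at day 14, 12 at day 21, 163 in the average and 3 in the interaction for SNI against sham; 3 and 41 for sham and 1 and 9 for SNI at days 14 and 21 against day 7; 727 at day 7, 1878 at day 14 and 13 in the interaction for amputation; and 473 and 149 for day 14 against day 7 in amputated and unamputated digits. With no filter the last count was 21. Libraries with the same replicate number had r of deviations from -0.203 to 0.143 over 18 pairs in the second set. In the time course r ranged from -0.787 to 0.773 over 40 pairs, of which 18 were over 0.1. With values so wide and of both signs, a pairing in the time course is not decided. SNI at days 14 and 21 had r of 0.773, 0.0756 and 0.565. In sham and SNI at day 14 all 3 pairs were over 0.1 (0.105 to 0.243), and with the block that comparison still called 0 genes. With a replicate block, amputation called 1 member and 115 genes at day 7, 56 genes at day 14 and 1114 in the average; Epgn at day 7 (edgeR, adjusted p = 0.0815) and the average of Nrg1 (edgeR, adjusted p = 0.0705) lost their calls, Btc averaged over SNI and sham became -0.015 and Areg averaged over amputation 0.0095. With the ribosomal share as covariate 373 genes were called in the SNI average and 1 in SNI between days 14 and 7, and signs changed for Erbb2 (0.15 at day 7, 0.028 at day 14, 0.16 in the average), Erbb3 (0.17 at day 7, 0.31 in the average), Nrg1 (0.27), Tgfa (0.39) and Btc (-0.10) in the average. Without both libraries of low TMM factor the Epgn average was 0.39. The causes were not tested.

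Leaving out 1 library, the averaged SNI value ranged from -0.91 to 0.087 for Erbb2, -1.13 to 0.27 for Erbb3, -0.60 to 0.42 for Nrg1, -0.41 to 0.34 for Tgfa, -0.11 to 0.31 for Btc and -0.30 to 0.27 for Epgn. The averaged amputation value ranged from -0.25 to 0.40 for Areg and from -0.051 to 0.011 for Tgfa. Members called ranged from 1 to 2 at day 7 and 0 to 1 at day 14 for amputation, and genes called from 84 to 177, from 31 to 498 and, in the average, from 736 to 2428. For day 14 against day 7 they ranged from 3 to 119 in amputated and 0 to 64 in unamputated digits. Sham day 21 replicate 2 mattered most in the time course: without it day 21 rested on replicate 1, assumed to vary like the other groups, and the counts went from 0 to 148 genes for SNI at day 21, 0 to 3384 in the interaction and 0 to 8332 in sham at day 21 against day 7, with 0 to 6 members (Nrg1, Erbb2, Erbb3, Egfr, Tgfa and Epgn). The SNI average ranged from 0 to 2 genes. Low counts limit Nrg1 and Areg.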

Other observations

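The same treatment and days, SNI with amputation at days 7 and 14, occur in both sets, which were counted and normalized separately, so levels set across them are only side by side. Erbb3 at day 7 was at 8.03 to 50.7 CPM in the time course and 125 to 169 CPM in the second set. Ereg at day 7 was at 42.7 to 104 CPM and 62.6 to 84.5 CPM, and Nrg1 at 0.731 to 1.61 CPM and 1.77 to 2.72 CPM. The ribosomal protein share of these day 7 libraries was between 8.416% and 18.2% in the time course and between 6.111% and 6.406% in the second set. No comparison between the sets was tested.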
